A study of Mus musculus with 6 samples.

Results

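The genes described here derive from the Gag gene of retrotransposons, mobile elements that once copied themselves into mammalian genomes. They are Rtl3, Rtl1, Peg10, Ldoc1, Pnma1 and Pnma2. All probes whose platform annotation carried 1 of these symbols were taken, which gave 11 probes for 6 genes, of 45281 probes and 19057 named genes on the array. Rtl3, also known as Zcchc5, was chosen by its log2 change and adjusted p in the very comparison described here, so its difference is a description and supports nothing by itself. The other 5 genes were taken as its relatives.

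RNA came from the micro-dissected right dentate gyrus (DG) of 6 male C57/Black6J mice aged 6-8 weeks, and each mouse had 1 Illumina MouseWG-6 array. Granule cells make up most of the neurons of the DG, a region of the hippocampus in which new neurons are born in adults. 3 mice had been brought into status epilepticus by repeated intraperitoneal injections of kainic acid (KA-SE), which activates glutamate receptors, and only animals with prolonged severe seizures had been kept. The other 3 mice had received saline, and all tissue was collected 72 h after the injections, without pooling of animals.

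Gag is the structural protein that assembles into the capsid of retroviruses and retrotransposons. Mammals have kept a small number of Gag-derived genes that no longer transpose, and several of their proteins still assemble into capsid-like particles. Rtl1 and Peg10 are imprinted and expressed from the paternal allele, and in mice both are needed for the placenta to form or function properly. Rtl3 and Ldoc1 lie on the X chromosome. PNMA1 and PNMA2 were first known as neuronal antigens in paraneoplastic neurological disease.

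The upstream sequences of 2 X-linked members are shown, that of Rtl3 as the only member called and that of Ldoc1 for comparison. They hold the 250 bases before the annotated gene start (RefSeq, GRCm38.p6), read 5′ to 3′ in the direction of transcription, with each CG dinucleotide in capitals. The Rtl3 sequence lies at chrX:106840540-106840789 on the minus strand, and the Ldoc1 sequence at chrX:61709361-61709610 on the plus strand.
Rtl3: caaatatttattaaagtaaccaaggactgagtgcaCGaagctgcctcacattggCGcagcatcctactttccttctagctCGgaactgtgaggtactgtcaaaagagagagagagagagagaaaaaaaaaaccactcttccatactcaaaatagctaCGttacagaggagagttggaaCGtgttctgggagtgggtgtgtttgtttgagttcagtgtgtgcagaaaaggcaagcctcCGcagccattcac
Ldoc1: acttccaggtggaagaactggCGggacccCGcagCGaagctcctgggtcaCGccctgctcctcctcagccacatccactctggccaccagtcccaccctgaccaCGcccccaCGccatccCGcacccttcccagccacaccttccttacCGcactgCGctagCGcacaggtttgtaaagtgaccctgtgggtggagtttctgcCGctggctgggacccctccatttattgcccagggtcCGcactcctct
The Rtl3 stretch held 6 CG dinucleotides, which was the median of all 32851 promoter entries, and 53.7% of these held as many or fewer. The Ldoc1 stretch held 12, and that of Pnma1 held 15. Short motifs were searched on both strands. The CCAAT box matched the Rtl3 stretch, as it did in 33.8% of all entries, and not those of Ldoc1 or Pnma1. The TATA box, searched as TATAAA, was present in 12.4% of all entries and in none of these stretches. The same held for the cAMP response element, searched as TGACGTCA, which 1.55% of all entries contained. A match is a description of letters only, as is the lack of one. Upstream sequences were matched for 3 of the 6 genes.

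A further set of sequences belongs to Rtl1. On the opposite, plus strand of chromosome 12, its annotated span contains 13 microRNA hairpins with 25 mature microRNA entries, which amount to 24 different sequences and 23 different seeds. Several of them are processed from a maternally expressed antisense transcript, and in mice they direct cleavage of the Rtl1 RNA, to which they are fully complementary. Those best known for this are shown with the seed (bases 2 to 8) in capitals (RefSeq, GRCm38.p6).
mmu-miR-431-5p (chr12:109590459-109590479): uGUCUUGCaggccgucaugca
mmu-miR-433-3p (chr12:109591781-109591802): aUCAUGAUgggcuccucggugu
mmu-miR-127-3p (chr12:109592888-109592909): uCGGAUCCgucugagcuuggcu
mmu-miR-136-5p (chr12:109595331-109595352): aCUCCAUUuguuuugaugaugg
No 2 of these 4 share a seed, and their mature forms were not measured on these arrays.

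On the 6 arrays, between 21798 and 22771 probes reached a detection P-value under 0.05, which came to 48.1% to 50.3% of all probes, and no pair of arrays held identical values. Of the granule cell markers, Prox1 and C1ql2 were detected on all arrays, whereas the probes of Calb1 and Tdo2 were detected on none and Dsp was not measured. The summed normalized signal of 5 astrocyte markers was 31195 to 33387 in KA-SE and 20142 to 21708 in saline, and Gfap was the only 1 of the 5 that passed the test. That of 5 microglia markers, of which Itgam was not detected on all arrays, was 1673 to 2278 in KA-SE and 1290 to 1385 in saline, and none passed. That of 5 pyramidal cell markers was 5249 to 5696 in KA-SE and 5832 to 6419 in saline, but none of the 5 passed, 2 had a positive log2 change, and only Fibcd1 had groups that did not overlap. Choroid plexus markers, a sign of neighbouring ventricular tissue, summed to 10498, 13530 and 11595 in KA-SE replicates 1 to 3, against 31679, 522 and 10822 in saline replicates 1 to 3. The saline arrays therefore differed among themselves in this tissue. In such bulk tissue, fewer cells of a type and less RNA per cell cannot be told apart.

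Several of these genes gave signals near the background, so detection is described for each probe. Of the 66 pairs of a probe and an array, 47 had a detection P-value under 0.05. All 6 arrays detected 7 of the 11 probes, namely the probe of Pnma2, all 3 of Pnma1, both of Ldoc1 and 1 of the 2 of Rtl1. The Rtl3 probe was detected on 2 of 3 KA-SE arrays and on 3 of 3 saline arrays. No array detected either Peg10 probe or the remaining Rtl1 probe. Testing required detection on all 3 arrays of either KA-SE or saline, which left 8 probes of 5 genes. Rtl3 met this criterion through its saline arrays alone.

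Rtl3, which encodes a Gag-like protein with a CCHC zinc finger and has no well established role in neurons, was lower in KA-SE. Its raw intensities were 61.6, 58.0 and 51.1 in KA-SE, against 97.2, 97.8 and 142 in saline. The lowest intensity that counted as detected was 50.9, 50.2 and 53.8 on these KA-SE arrays, and 54.2, 49.1 and 63.8 on the saline arrays. The KA-SE signals thus lay close to the detection limit, and that of replicate 3 was below it, with detection P-values of 0.0053, 0.011 and 0.084. On all 3 saline arrays the detection P-value was 0.

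**Figure D1:**
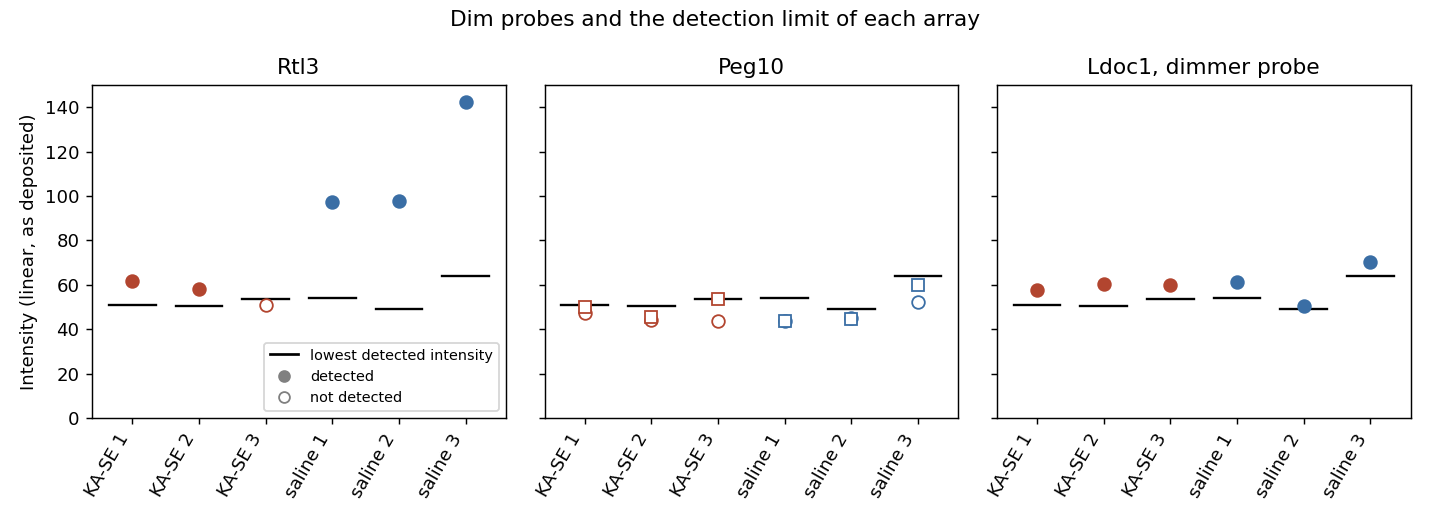
Raw intensity (linear, y axis) on each of the 6 arrays (x axis, KA-SE in red, saline in blue) of Rtl3, of both Peg10 probes (circles and squares) and of the dimmer Ldoc1 probe, with a black bar at the lowest intensity detected on that array. Filled symbols mark detection, open symbols none: Rtl3 is far above the bar in saline only, and Peg10 is below it on every array.

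After background correction and normalization, the log2 signal of Rtl3 was 5.20, 5.19 and 4.65 in KA-SE, against 6.12, 6.51 and 6.34 in saline. Every KA-SE value lay below every saline value. The means were 5.01 ± 0.31 in KA-SE and 6.32 ± 0.19 in saline (SD, n = 3 each), a log2 change of -1.31 ± 0.167 (moderated SE). With KA-SE at the detection limit, the size of this change depends on the background correction. The median background subtracted, the raw signal averaged 16.3 ± 6.86 in KA-SE and 70.0 ± 22.3 in saline (SD, n = 3 each). The limma adjusted p = 0.0251 was among the values by which Rtl3 was chosen. Across the array, 49 of 21226 probes were called at an adjusted p under 0.05 (0.231%), of which 4 were lower in KA-SE (0.0188%). Among named genes, 2 of 11222 were called lower (0.0178%), Rtl3 and Ryr1.

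The call of Rtl3 depended on the setting, whereas the direction of its difference was the same in every setting run. As every KA-SE value lay below every saline value, leaving out an array could not reverse that direction. Rtl3 was also chosen by this difference, so the constant direction is no support for it. Without the filter on dim probes, the limma adjusted p was 0.258 at the same log2 change of -1.31. With any 1 of KA-SE replicate 2, KA-SE replicate 3 or saline replicates 1, 2 and 3 left out, the adjusted p was 0.0698, 0.0615, 0.0671, 0.0862 and 0.119, in this order, with log2 changes of -1.42, -1.13, -1.41, -1.23 and -1.26. Of the 6 single omissions, only that of KA-SE replicate 1 kept it under the threshold (-1.40, adjusted p = 0.0278). With another background correction, made without inferred negative controls and with an offset of 50 in place of 16, the change was -0.69. The part of the offset alone was not tested. The summed astrocyte and microglia markers, higher on each KA-SE array than on any saline array, moved with this difference. The sum of the pyramidal cell markers was lower on each KA-SE array, with no single marker called. That of the granule cell markers was 4676 to 5998 in KA-SE and 4329 to 4795 in saline, so the groups overlapped. The sums of interneuron, oligodendrocyte, endothelial and choroid plexus markers overlapped too. The part of these markers in the Rtl3 difference was not tested.

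**Figure D2:**
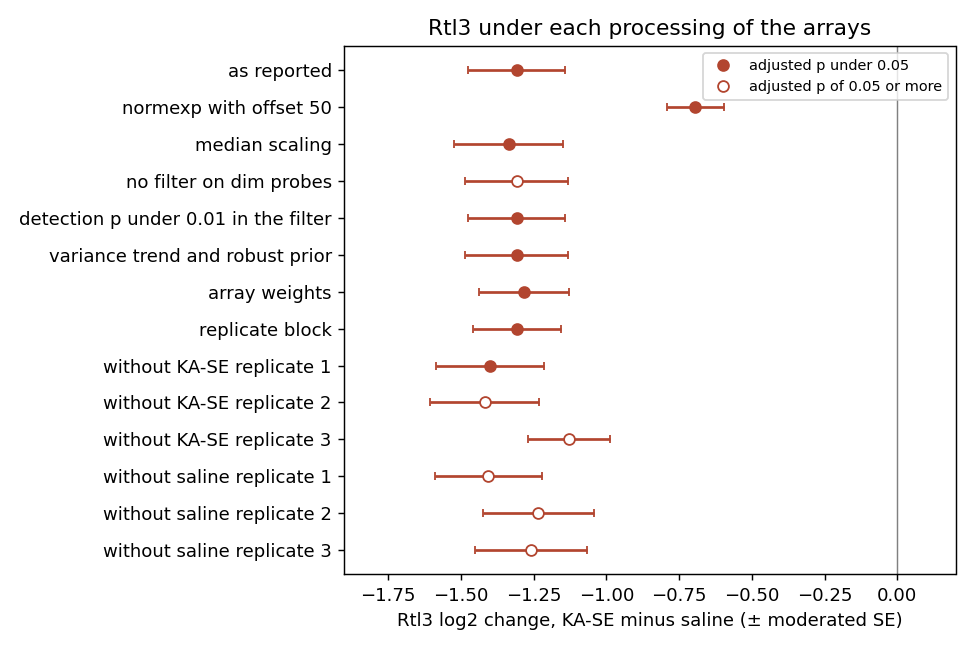
Log2 change of Rtl3, KA-SE minus saline (x axis, log2 units), as reported, under each other processing and with each array left out (y axis). The authors' score table, which has its own scale, is not shown. Points are estimates with moderated SE, filled where the limma adjusted p is under 0.05 over all probes; all lie between -1.42 and -0.69.

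The other tested probes of these genes had log2 changes between -0.14 and 0.15, with a median of -0.04, against -0.01 over all probes tested. Their SE ranged from 0.119 to 0.149 and their adjusted p (limma) from 0.866 to 0.999, and in all 7 the groups overlapped. Among all tested probes, 13.1% had groups that did not overlap, and 5.75% were lower in KA-SE without overlap. Of the 8 tested probes of these genes, only that of Rtl3 did so and only that of Rtl3 was called.

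Rtl1 encodes a large Gag-Pol-like protein and is expressed from the paternal chromosome. Its detected probe had log2 signals of 7.21, 7.29 and 7.36 in KA-SE, against 7.16, 7.45 and 7.37 in saline. The saline values enclosed those of KA-SE. The log2 change was -0.04 ± 0.119, with a 95% confidence interval from -0.30 to 0.23 (limma adjusted p = 0.981). The other Rtl1 probe had detection P-values from 0.316 to 0.803 over the 6 arrays and was not detected in either group.

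Peg10, the other imprinted member, encodes Gag and Gag-Pol forms by ribosomal frameshifting. Its first probe had raw intensities of 47.3, 44.0 and 43.8 in KA-SE, against 43.8, 44.8 and 52.0 in saline, with a lowest detection P-value of 0.111. Its second probe had 50.05, 45.6 and 53.5 in KA-SE, against 43.8, 44.5 and 60.04 in saline, with a lowest detection P-value of 0.056. None of these reached the detection threshold, so no fold is given, and a difference in Peg10 was not tested.

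Ldoc1 encodes a small leucine zipper protein derived from Gag, which in mice acts in the endocrine cells of the placenta. Its brighter probe had log2 signals of 6.79, 6.74 and 6.88 in KA-SE, against 7.14, 6.57 and 6.74 in saline. The KA-SE values fell inside the saline range, and the change was -0.01 ± 0.149 (95% interval -0.34 to 0.32, limma adjusted p = 0.996). The dimmer probe had 5.04, 5.30 and 5.06 in KA-SE, against 5.09, 4.88 and 4.96 in saline, a change of 0.15 ± 0.122 (-0.12 to 0.42, adjusted p = 0.866). This probe lay near the background on every array, with raw intensities of 57.6, 60.4 and 59.8 in KA-SE and 61.1, 50.3 and 70.2 in saline, and it was detected on all 6.

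Pnma1 and Pnma2 encode Ma antigens, which are expressed in neurons, and the PNMA2 protein can assemble into capsids. The Pnma1 probe with the highest mean had log2 signals of 7.36, 7.13 and 7.05 in KA-SE, against 7.23, 7.12 and 7.19 in saline. The groups overlapped, and the change was -0.0023 ± 0.119 (95% interval -0.27 to 0.26, limma adjusted p = 0.999). Another Pnma1 probe had 6.69, 6.55 and 6.61 in KA-SE and 6.78, 6.57 and 6.91 in saline, and the last had 6.80, 6.80 and 6.93 in KA-SE and 7.11, 6.82 and 7.01 in saline. Both had a change of -0.14, with 95% intervals from -0.41 to 0.13 and from -0.40 to 0.13 (limma adjusted p = 0.899 and 0.892). Pnma2 had log2 signals of 10.98, 10.70 and 10.82 in KA-SE, against 10.92, 10.97 and 10.76 in saline. Its change was -0.05 ± 0.121, with an interval from -0.32 to 0.22 (adjusted p = 0.979). These intervals leave room for small changes in either direction and do not show that the levels were equal.

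**Figure D3:**
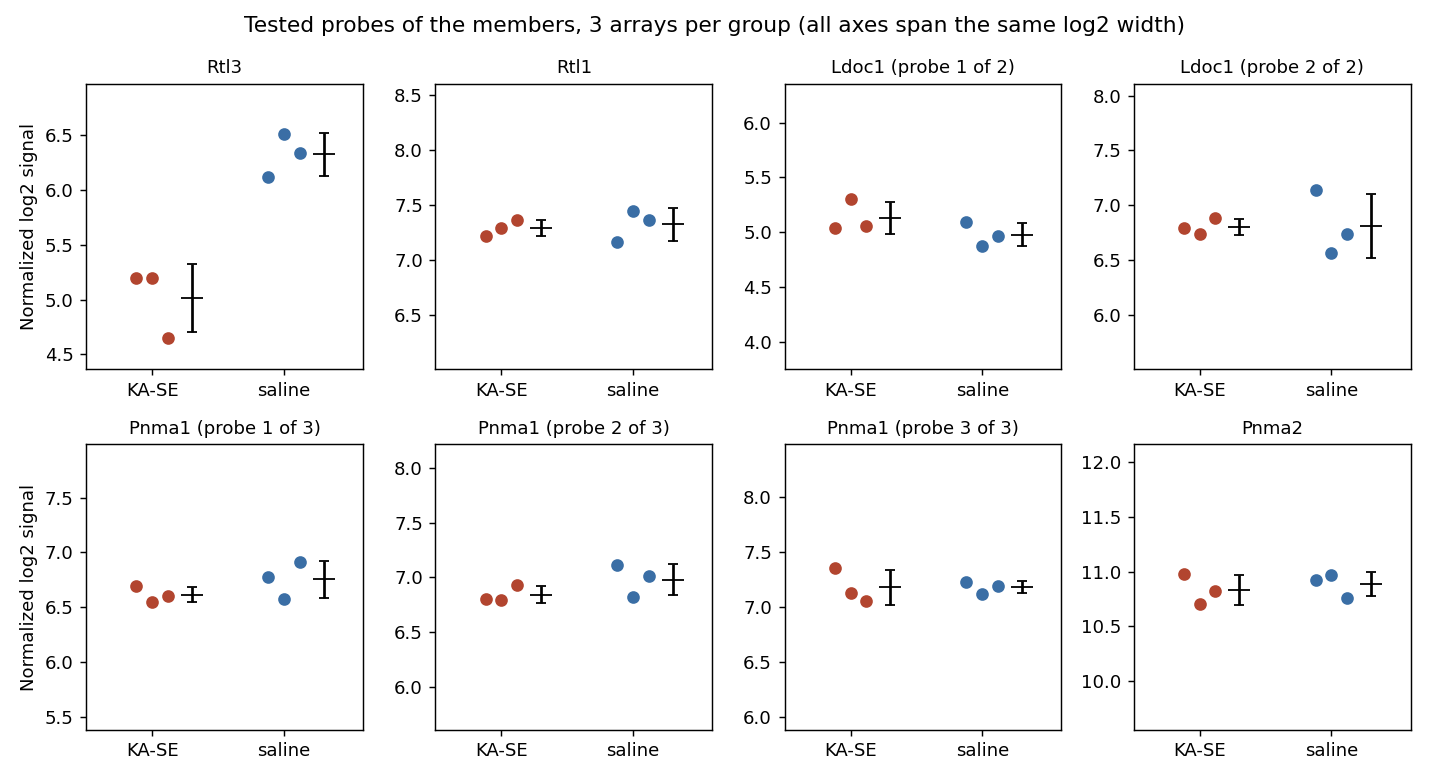
Normalized log2 signal (y axis, all panels spanning the same width) of the 8 tested probes in KA-SE (left, red) and saline (right, blue), 1 point per array, with mean and SD (n = 3) in black. The groups are apart for Rtl3 and overlap for the other 7 probes.

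The wider family of Gag-derived genes was then described in the same fit. Of 18 further genes, 13 had a probe and 10 were tested. None was called by limma in either direction, none had an unadjusted p under 0.05, and the lowest adjusted p was 0.84. Of the 10, 3 had a positive and 7 a negative log2 change, between -0.19 and 0.13, with a median of -0.08, against -0.0011 over all 11222 genes tested, of which 0.312% were called. No gene of the 10 had groups that did not overlap, against 14.1% of all genes tested.

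Arc, the activity-regulated gene whose Gag-like protein forms capsids that carry RNA between neurons, had log2 signals of 8.06, 8.66 and 9.95 in KA-SE, against 8.45, 9.51 and 8.999 in saline. It varied more between mice than any other gene of this list, with an SE of 0.406 around a change of -0.10 (limma adjusted p = 0.985). Rtl4, which in mice has been tied to noradrenaline in the brain, had 5.72, 5.39 and 5.24 in KA-SE, against 5.62, 5.72 and 5.58 in saline. Its change of -0.19 ± 0.137 was the most negative of the list (adjusted p = 0.84). Rtl6, which in mouse brain is made by microglia, had a change of -0.07 ± 0.106. Rtl8a, Rtl8b and Rtl8c, near-identical copies on the X chromosome that their probes cannot be assumed to tell apart, had changes of 0.11, 0.13 and 0.01. A dimmer tested probe gave -0.06 for Rtl8a, the opposite sign, and 0.08 for Rtl8c. Rtl8b had the most positive change of the list, with 7.87, 7.85 and 7.78 in KA-SE, against 7.62, 7.70 and 7.78 in saline. Among relatives of the Pnma genes, Zcchc18 had a change of -0.13, Pnmal1 (Pnma8a) of -0.10 and Zcchc12 of -0.09. Asprv1, a retroviral-like protease of the skin, had a change of -0.0040. Rtl9, Moap1 and Pnma5 were not tested, because they did not pass the detection criterion.

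The imprinted regions of Rtl1 and Peg10 were examined next, since some genes there share control regions. Whether each listed neighbour is itself imprinted was not checked here. Of 16 neighbours, 15 had a probe and 8 were tested, and none was called by limma. An unadjusted p under 0.05 was found for 3 of the 8, against 8.45% of all genes tested. Of the 8, 4 had a positive and 4 a negative log2 change, with a median of 0.02. In 5 of the 8 the groups did not overlap, 3 with higher and 2 with lower values in KA-SE, against 14.1% of all genes tested.

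Around Rtl1, Dlk1, a paternally expressed Notch-like ligand, had log2 signals of 6.23, 6.45 and 6.18 in KA-SE, against 6.08, 5.92 and 5.71 in saline. The KA-SE values were all above those of saline, with a change of 0.38 ± 0.133 that did not pass (limma adjusted p = 0.432). Its dimmer probe, detected on 1 of 3 saline arrays, had a change of 0.18 ± 0.147, and there the groups overlapped. Begain, which encodes a protein of the postsynaptic density, had 5.95, 5.78 and 5.53 in KA-SE, against 6.19, 6.14 and 6.22 in saline. All its KA-SE values were below those of saline, with a change of -0.43 ± 0.129 (adjusted p = 0.32). Of the maternally expressed noncoding RNAs, Rian had a change of 0.08 ± 0.114. The 2 tested probes of Meg3 differed in sign, with -0.10 ± 0.233 for the brighter and 0.28 ± 0.163 for the other, and a further probe did not pass the detection criterion. Wars, a tRNA synthetase gene, had a change of -0.17 ± 0.115, with all KA-SE values below those of saline. Its dimmer tested probes had changes of -0.04, -0.13 and -0.18, and in each of them the groups overlapped. Dio3 did not pass the detection criterion.

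Around Peg10, Pdk4, which encodes a kinase that restrains pyruvate dehydrogenase, had log2 signals of 7.15, 7.51 and 7.36 in KA-SE, against 7.10, 7.004 and 7.02 in saline. The groups did not overlap, and the change of 0.30 ± 0.123 did not pass (limma adjusted p = 0.547). Pon2, a paraoxonase family gene, had a change of 0.20 ± 0.115, also without overlap of the groups. Ppp1r9a, which encodes the actin-binding protein neurabin, had a change of -0.04 ± 0.109. The dimmer tested probe of Ppp1r9a had the opposite sign, with 0.15 ± 0.127. Sgce, Casd1, Pon1, Pon3, Asb4 and Calcr did not pass the detection criterion, as was the case for Peg10 itself.

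**Figure D4:**
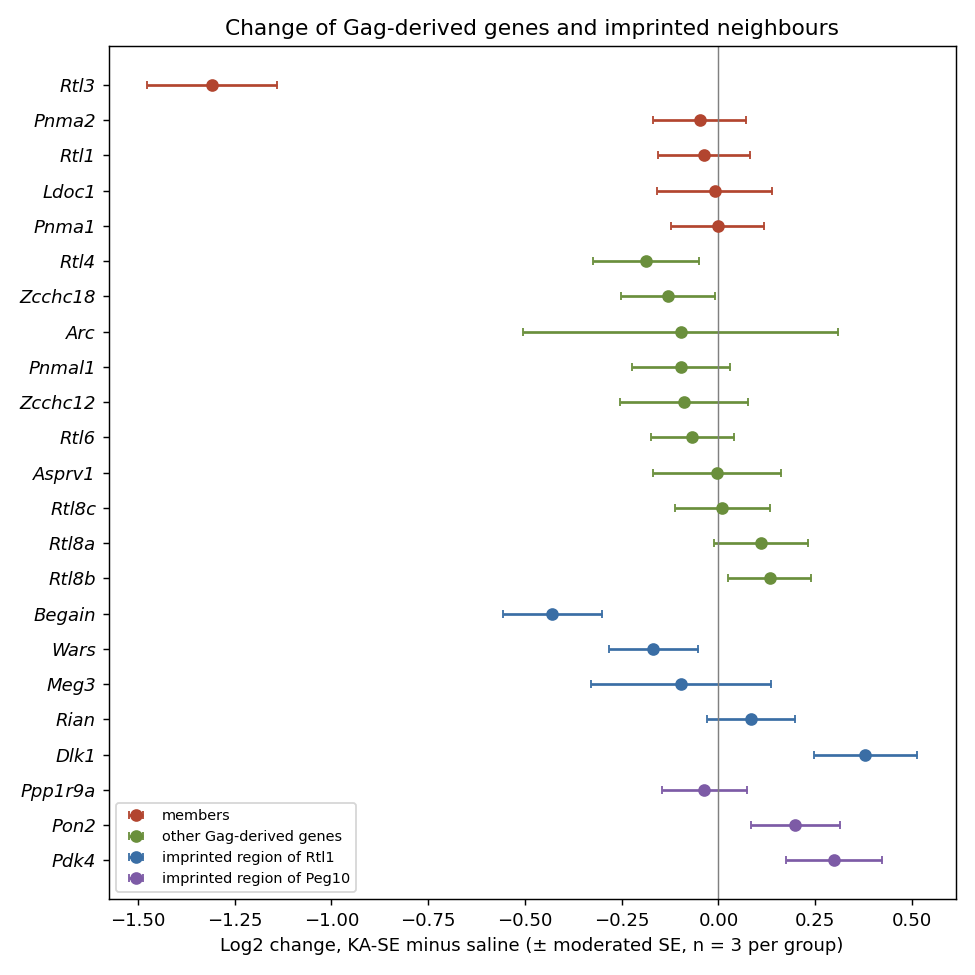
Log2 change, KA-SE minus saline (x axis), of the tested genes (y axis), with moderated SE (n = 3 per group). Rtl3 lies at -1.31 and the other 4 members between -0.05 and 0. The wider family lies between -0.19 and 0.13, and the neighbours of Rtl1 and Peg10 between -0.43 and 0.38.

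Genes that silence or restrict retroelements, among them the Trim28 and Setdb1 corepressors and the DNA methyltransferases, showed no call by limma. Of 28 listed genes, 24 had a probe and 18 were tested, of which 9 had a positive and 9 a negative log2 change, with a median of -0.01. Among all genes tested, 0.312% were called and 8.45% had an unadjusted p under 0.05. Of the 18, 1 had an unadjusted p under 0.05. This was Uhrf1, which recruits the maintenance methyltransferase to DNA, with 6.13, 5.54 and 6.04 in KA-SE, against 5.37, 5.45 and 5.14 in saline. Its groups were the only ones of the 18 that did not overlap, against 14.1% of all genes tested, and its change of 0.58 ± 0.165 did not pass (adjusted p = 0.281). The next smallest adjusted p of this list were those of Dnmt3b (0.20, adjusted p = 0.791), the helicase Mov10 (0.14, adjusted p = 0.909) and Trim28 (-0.11, adjusted p = 0.92), each with its log2 change.

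Lastly, the genes whose profile over the 6 arrays was most like that of Rtl3 were listed, among 434 genes with a log2 range of at least 1. Since these arrays include both groups, a high correlation also reflects a difference between the groups, and no p is given. Pearson's r was 0.994 for Fst, which encodes the activin antagonist follistatin, and 0.953 for Carmil1, a regulator of actin capping. It was 0.948 for Ryr1, a calcium release channel, 0.929 for Npy1r, a receptor of neuropeptide Y, and 0.890 for the transcription factor gene Etv4. Fst had log2 signals of 4.63, 4.67 and 4.32 in KA-SE, against 5.20, 5.39 and 5.20 in saline. Its probe was detected on 0 of 3 KA-SE arrays and on 3 of 3 saline arrays, so its KA-SE values are below the detection limit. As Rtl3 was not detected on KA-SE replicate 3 either, no order is read among the KA-SE values of these genes. The most negative r, which mark profiles opposite to that of Rtl3, were those of Lag3 (-0.997), Lyz2 (-0.993) and Cd9 (-0.993). Lag3 encodes an immune receptor, Lyz2 a lysozyme of myeloid cells and Cd9 a tetraspanin. Lyz2 had 8.06, 8.15 and 8.66 in KA-SE, against 7.34, 6.99 and 7.30 in saline, and its KA-SE values were all above those of saline.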

How the data were processed

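Total RNA from the right DG of each mouse was labelled and hybridized to 1 array per mouse. Per probe and array, the authors deposited an intensity (linear, without background subtraction) and a detection p-value. They also deposited a normalized table, whose values are called a score here because its log base and offset, like the software versions upstream, are in none of the sources read here. The last digit of the column name set the replicate for 2 raw KA-SE columns with a second digit in their names.

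Background was corrected by normexp (offset 16), for which negative controls were inferred from the detection p-values, and intensities were quantile normalized and expressed as log2 (neqc, limma 3.58.1, R 4.3.3); this log2 scale was computed here from the deposited intensities. A probe was tested where its detection p-value was under 0.05 throughout the 3 arrays of either group, which held for 21226 of 45281. The comparison of KA-SE with saline used limma's moderated test, on both sides, its p-values adjusted after Benjamini-Hochberg over all tested probes with a threshold of 0.05. The SE given with a change is the moderated one. For 3 against 3, an exact permutation test of a single probe could not go below p = 0.1, and precision is limited by the number of arrays. Where a gene had several tested probes, the one with the highest mean stood for it. Slide and scan batches were not used here, so their part was not tested. The limma fit was also run on simulated log2 values with known changes. That run did not cover the background correction, the normalization or the detection filter.

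Probes were named from the platform annotation, of which 34885 had 1 gene and 18 had several and were left unnamed. All members and all measured genes of the wider family and imprinted regions were named, with up to 4 silencing genes of smallest adjusted p. So were the 5 genes with the highest and the 3 with the lowest correlation to Rtl3. Members and lists were chosen with earlier results of these data known. Alternatives covered background correction, normalization, the deposited score table, the filter, the variance prior, array weights, a replicate block, the detection threshold, the choice of probe and the omission of each array.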

Additional observations from a re-analysis of the deposited data

How the results depend on the processing

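The count of 49 called probes was 78 once median scaling replaced quantile normalization (63 higher, 15 lower), 81 with a variance trend and robust prior, 89 with array weights, 32 with the replicate block, 9 on the authors' score table and 0 without the filter on dim probes (limma; 3000 of 45281 probes had an unadjusted p under 0.05 there). Leaving out each array in turn gave 4 to 85 probes, with 85 when KA-SE replicate 1 was omitted, 5 for the omission of KA-SE replicate 2 or of saline replicate 1 or 2, and 4 for that of replicate 3 of KA-SE or saline. The cause of these shifts was not tested. Median scaling moved the median log2 change of all probes to -0.10, and changes under it are relative to that shift. Rtl3 then had -1.34 (limma adjusted p = 3.19e-05). The median of the neighbours of Rtl1 and Peg10 was -0.073 and that of the silencing genes -0.13.

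Besides the main fit, 13 alternative settings were run on the log2 scale. The Rtl3 change ranged over them from -1.42 to -0.69, with limma adjusted p from 3.19e-05 to 0.258, and was called in 7. They reuse the same arrays and the values by which Rtl3 was chosen, so they are not separate evidence for its difference. Without the filter it had -1.31 (adjusted p = 0.258). Leaving out 1 array gave -1.42 to -1.13. On the authors' score table its difference was -0.76 score units (adjusted p = 0.0491). The signs of the members near 0 were not stable: array weights gave 0.024 for Ldoc1 and 0.0063 for Pnma1, and leaving out 1 array gave -0.12 to 0.025 for Rtl1, -0.13 to 0.15 for Ldoc1, -0.090 to 0.061 for Pnma1 and -0.12 to 0.017 for Pnma2. The median of the wider family then ranged from -0.13 to 0.013, and that of the neighbours of Rtl1 and Peg10 from 0.0025 to 0.14. At a detection P-value under 0.01, 42 in place of 47 of the 66 pairs of a probe and an array were detected.

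Same-numbered arrays correlated in their deviations from the group means at 0.0224, 0.185 and 0.239. KA-SE replicates 2 and 3 correlated best with the saline array of the same number, and KA-SE replicate 1 with saline replicate 2 (0.0529). These values do not settle whether the numbers mark a shared step, and the main comparison was run without pairing. With the replicate block, Rtl3 kept its change of -1.31 (adjusted p = 0.035), and the changes of Rtl1, Ldoc1, Pnma1 and Pnma2 were -0.04, -0.01, -0.0023 and -0.05, none of them called. Signal over background limited Rtl3 in KA-SE and left Peg10 without a measurement.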
